A study of Mus musculus with 8 samples.

Results

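The 10 genes described here encode the core and naive pluripotency transcription factors of mouse embryonic stem cells (ESCs), namely *Pou5f1*, *Sox2*, *Nanog*, *Klf4*, *Esrrb*, *Zfp42*, *Tfcp2l1*, *Prdm14*, *Tbx3* and *Nr0b1*. They were chosen by name, and all 10 were found among the 36808 genes of the expression table, 9 under these symbols and *Tfcp2l1* under its older symbol *Tcfcp2l1*.

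POU5F1 (OCT4) and SOX2 bind DNA together and, with NANOG, form the core of the network that keeps ESCs undifferentiated. KLF4, ESRRB, TFCP2L1, TBX3, PRDM14 and NR0B1 (DAX1) act around this core, and several of them are maintained by leukemia inhibitory factor (LIF) through STAT3. ZFP42 (REX1) is widely used as a reporter of the naive state. When LIF is withdrawn and cells commit to a lineage the network is shut down, but SOX2 is kept in neural progenitors and TBX3 and KLF4 also act in other lineages. Polycomb Repressive Complex 2 (PRC2), which contains SUZ12 and EED, places the repressive mark H3K27me3 on developmental genes.

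RNA-seq values of 8 libraries were used, with 1 library per line and stage, so a difference between any 2 libraries has no replicate of its own and fold counts are given as a description. What could be tested with limma, in fits chosen after seeing the data, was the change to day 5 over the 3 lines with both stages and the difference between 2 mutant and 2 wild-type ESC lines, and these take the lines as replicates although they differ in genotype and strain. The 4 ESC libraries were from wild-type E14 cells (129/Ola background), wild-type CJ7 cells (129/S), *Suz12delta* cells (C57/BL6), which carry a truncated SUZ12, and *Eednull* cells (BALB/cR1), which carry a point mutation in *Eed*. The 4 day 5 libraries were from E14, *Suz12GT* (129/Ola), *Suz12delta* and *Eednull* cells taken through spinal motor neuron (SMN) differentiation, in which LIF is removed and retinoic acid and an agonist of Hedgehog signaling are added. *Suz12GT* is a gene-trap line that makes a SUZ12-β-galactosidase fusion and keeps part of its H3K27me3. Each line is a single ESC line on its own strain background, so line, strain and genotype cannot be told apart except that E14 and *Suz12GT* share a background by their labels. All ESCs were grown with serum and LIF on irradiated mouse embryonic fibroblasts, which were removed by brief plating before collection. A *Suz12GT* ESC library was not analysed here.

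Levels are in FPKM, which are fragment numbers divided by transcript length and library size, as deposited, so levels of different genes are compared per length. In bulk RNA, fewer expressing cells and less RNA per cell cannot be told apart. A value listed at 0 can be a failed estimate, and *Tubb3*, a neuronal tubulin gene, was listed at 0 in all 8 libraries including those of day 5 neurons. The *Eednull* ESC and CJ7 libraries were prepared and sequenced together according to the labels and the table's header, and the CJ7 label names it as the wild-type control for that batch. The batches of the other 6 libraries are not given, so *Eednull* ESCs against E14 ESCs, and *Eednull* day 5 cells against *Eednull* ESCs, may each cross batches.

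The targeted gene *Suz12* was at 6.21 FPKM in *Suz12delta* ESCs against 41.3 FPKM in E14 and 53.1 FPKM in CJ7 ESCs. At day 5 *Suz12* was at 11.6 FPKM in *Suz12delta*, 10.3 FPKM in *Suz12GT* and 16.2 FPKM in E14 cells, so its level set the *Suz12delta* ESCs apart but hardly the day 5 cells. *Eed* was at 42.4 FPKM in *Eednull* ESCs against 32.7 FPKM in E14 ESCs, a gene-level value that cannot show a point mutation. Of 12 fibroblast marker genes, the summed level was 133 FPKM in E14, 144 FPKM in CJ7, 837 FPKM in *Suz12delta* and 317 FPKM in *Eednull* ESCs, and 12.0 to 148 FPKM over the day 5 libraries, with none of the 12 at 0 in any ESC library. Their part in the values below was not tested. Over 7 neuronal and motor neuron genes the sum was 238 FPKM in E14 and 437 FPKM in *Suz12GT* day 5 cells but 13.7 FPKM in *Suz12delta* and 10.5 FPKM in *Eednull* day 5 cells. All 6 of these genes that could be compared were at least 2-fold lower than in E14 in the latter lines, beside 9.52% and 11.3% of all genes. The markers of the labelled differentiation were thus low there. *Hprt*, a housekeeping gene for purine salvage, was at 2.08 FPKM in E14 ESCs and 0.652 FPKM in E14 day 5 cells against 16.5 to 53.3 FPKM in the other 6 libraries, including 16.5 FPKM in *Suz12GT* cells.

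**Figure D1:**
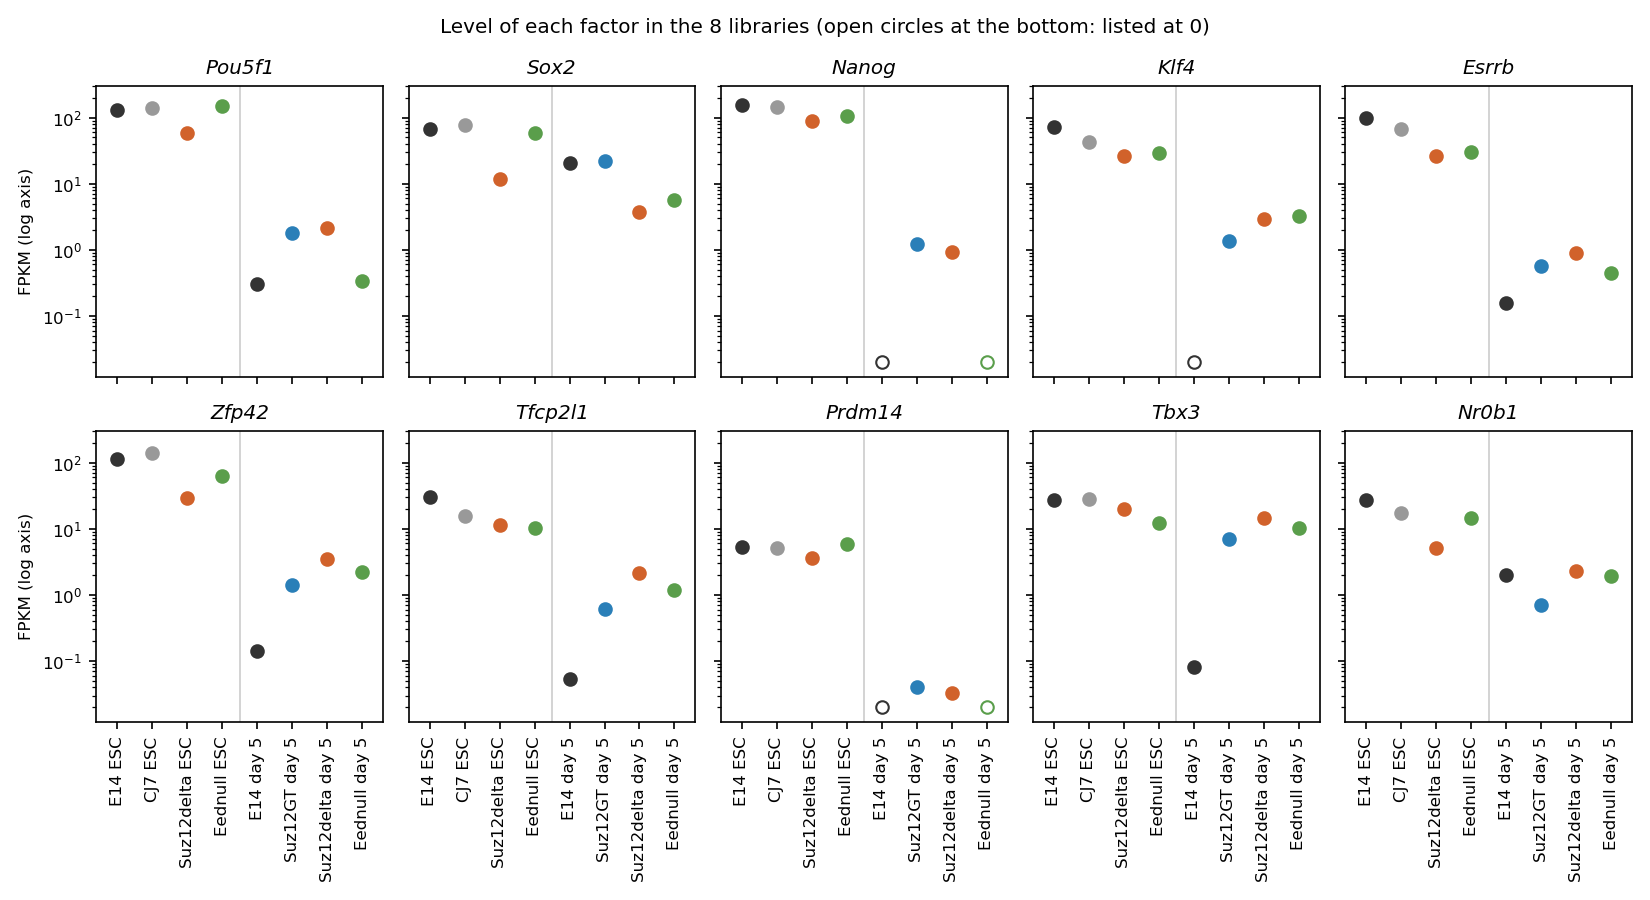
Level of each of the 10 factors in the 8 libraries, in FPKM on a log axis, with 1 point per library (black E14, grey CJ7, blue Suz12GT, orange Suz12delta, green Eednull) and ESCs left of the grey line. Open circles stand for values listed at 0 and are placed at the bottom of the panel. *Sox2* stays at 20.7 and 22.2 FPKM in E14 and *Suz12GT* day 5 cells, and *Tbx3* lies at 7.13 to 14.5 FPKM in the mutant day 5 cells against 0.0815 FPKM in E14 day 5 cells.

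Because the network is held together by its own DNA-binding factors, the start-site windows of the members were read from RefSeq (GRCm38.p6, a later build than that of the expression table, 250 bases before to 50 bases after the start). Windows were found for 8 of the 10 genes, 11 windows in all, and not for *Prdm14* and *Tbx3*. A composite of the SOX and OCT motifs (CATTGT, any base, then ATGCA, on either strand) was present in both *Nanog* windows, which overlap and share this 1 site, and in 9 of all 32851 windows (0.0274%), where windows of neighbouring starts can likewise share a site. The octamer ATGCAAAT, the motif of POU factors, was present in the *Zfp42* window and in 1.74% of all windows. These windows are shown since they hold the motifs of the core factors, which are given in capitals, and a match describes the letters alone.

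Nanog, chr6:122707239-122707538, plus strand: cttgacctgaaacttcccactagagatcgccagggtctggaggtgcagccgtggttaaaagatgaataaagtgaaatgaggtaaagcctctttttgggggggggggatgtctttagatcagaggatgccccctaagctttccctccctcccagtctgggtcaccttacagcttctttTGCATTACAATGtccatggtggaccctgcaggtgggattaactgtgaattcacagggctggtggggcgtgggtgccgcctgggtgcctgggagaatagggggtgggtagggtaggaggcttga

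Zfp42, chr8:43306960-43307259, minus strand: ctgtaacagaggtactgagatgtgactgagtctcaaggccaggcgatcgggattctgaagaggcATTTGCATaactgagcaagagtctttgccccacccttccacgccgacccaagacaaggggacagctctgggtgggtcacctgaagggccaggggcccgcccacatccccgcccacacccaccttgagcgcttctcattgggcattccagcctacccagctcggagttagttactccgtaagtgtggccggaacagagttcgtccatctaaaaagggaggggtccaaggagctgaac

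The AAGGTCA half-site of ESRRB and the TTCCNGGAA site of STAT factors were in none of the 11 member windows, against 4.72% and 1.15% of all windows. The KLF motif CCACACCC was in the *Zfp42* window and in 3.56% of all windows. The GC box GGGGCGGGG, a motif of SP and KLF factors, was in the *Sox2*, *Klf4* and the upstream *Pou5f1* window and in 11.4% of all windows. The windows of *Klf4*, *Sox2* and *Tfcp2l1* held 40, 27 and 21 CpG dinucleotides, and those of *Nanog* held 4 each, where the median over all windows was 7.

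In ESCs of every line the 10 genes were expressed, with 9 of them at 5.12 FPKM or more in all 4 libraries and *Prdm14* at 3.57 to 5.92 FPKM. *Pou5f1* (chromosome 17, 35642982 to 35647721, all gene positions being on NCBI build 37) was at 130 FPKM in E14, 142 FPKM in CJ7, 58.1 FPKM in *Suz12delta* and 149 FPKM in *Eednull* ESCs. *Nanog* (chromosome 6, 122657507 to 122664651) was at 155 FPKM in E14, 147 FPKM in CJ7, 88.0 FPKM in *Suz12delta* and 107 FPKM in *Eednull* ESCs. *Nanog* was the member with the highest value in E14, CJ7 and *Suz12delta* ESCs and *Pou5f1* in *Eednull* ESCs, and both stood at the 97.0th percentile of all genes or higher in each ESC library. *Sox2* (chromosome 3, 34548927 to 34551383) was at 67.1 FPKM in E14, 78.0 FPKM in CJ7, 11.9 FPKM in *Suz12delta* and 58.7 FPKM in *Eednull* ESCs. It was thus close in the 2 wild-type lines and *Eednull* ESCs, and 5.65 times lower in *Suz12delta* than in E14 ESCs. *Sox2* lies within *Sox2ot*, a long noncoding RNA gene on the same strand, and reads of the overlap cannot be told apart. *Tbx3* overlaps *Gm2301*, a transcript on the opposite strand, and *Tfcp2l1* overlaps a *5S_rRNA* and a *U1* entry, and whether the counting used strand is not given in the sources used here.

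Among the naive factors, *Zfp42* (chromosome 8, 44380422 to 44392363) was at 113 FPKM in E14, 142 FPKM in CJ7, 29.2 FPKM in *Suz12delta* and 62.9 FPKM in *Eednull* ESCs. *Esrrb*, an orphan nuclear receptor gene (chromosome 12, 87702067 to 87862578), was at 99.3 FPKM in E14, 67.0 FPKM in CJ7, 25.9 FPKM in *Suz12delta* and 30.5 FPKM in *Eednull* ESCs. As deposited, both genes were lower in each mutant line than in each wild-type line, as were all other members but *Pou5f1* and *Prdm14*. For *Sox2*, *Nanog* and *Tbx3* this depended on how the libraries were scaled. *Klf4*, a zinc finger factor gene (chromosome 4, 55540013 to 55545347), was at 72.5 FPKM in E14, 42.1 FPKM in CJ7, 26.5 FPKM in *Suz12delta* and 29.6 FPKM in *Eednull* ESCs. *Tfcp2l1*, a CP2-family factor gene (chromosome 1, 120524522 to 120581744), was at 29.97 FPKM in E14, 15.4 FPKM in CJ7, 11.5 FPKM in *Suz12delta* and 10.4 FPKM in *Eednull* ESCs. Their order over the 4 libraries was nearly the same, with E14 highest and CJ7 next, and the wild-type lines differed by 1.72-fold for *Klf4* and 1.95-fold for *Tfcp2l1*. *Tbx3*, a T-box factor gene (chromosome 5, 120120678 to 120134733), was at 27.0 FPKM in E14, 28.5 FPKM in CJ7, 19.7 FPKM in *Suz12delta* and 12.0 FPKM in *Eednull* ESCs. *Nr0b1*, an orphan nuclear receptor gene of the X chromosome (83437103 to 83441286), was at 27.0 FPKM in E14, 17.2 FPKM in CJ7, 5.12 FPKM in *Suz12delta* and 14.7 FPKM in *Eednull* ESCs. *Prdm14*, a PR domain factor gene also used in germ cell specification (chromosome 1, 13103538 to 13117244), varied least over the 4 ESC libraries, by 1.66-fold between highest and lowest, and *Sox2* most, by 6.56-fold. With 1 library per line there is no spread against which neighbours in these orders could be separated.

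A gene was counted as different between lines when log2 of FPKM plus 0.1 differed by at least 2-fold and the higher of the paired values reached 0.1 FPKM. In *Suz12delta* ESCs 7 of the 10 factors were at least 2-fold lower than in E14 ESCs and 0 at least 2-fold higher, where 22.8% of all genes were lower and 18.0% higher by this measure. The 7 were *Sox2*, *Nr0b1*, *Zfp42*, *Esrrb*, *Klf4*, *Tfcp2l1* and *Pou5f1*, from 5.65-fold for *Sox2* to 2.24-fold for *Pou5f1*. *Nanog*, *Prdm14* and *Tbx3* were 1.76-, 1.51- and 1.37-fold lower, but turned higher than in E14 with equal FPKM sums. The median log2 ratio was -1.41 over the 10 factors and -0.28 over all genes compared. This count depended on how the libraries were scaled. With each library set to the same FPKM sum, 2 of the 10 (*Sox2* and *Nr0b1*) were at least 2-fold lower. The median log2 ratio was then -0.38 over the factors and 0.73 over all genes, so the median of the factors stayed under that of all genes. The share of all genes lower under that scaling was not computed. Against CJ7 in place of E14 the count was 5, where 24.0% of all genes were lower.

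In *Eednull* ESCs 4 of the 10 factors were at least 2-fold lower than in E14 ESCs, where 11.9% of all genes were lower, and 0 were at least 2-fold higher, where 22.4% of all genes were higher. The 4 were *Esrrb* (3.26-fold), *Tfcp2l1* (2.89-fold), *Klf4* (2.45-fold) and *Tbx3* (2.24-fold), all of them naive factors. With equal FPKM sums the count was 2, since *Klf4* and *Tbx3* were then under 2-fold. The median log2 ratio was then -0.36 over the factors and 0.55 over all genes. With the libraries scaled to 8 reference genes the count was 7, and these medians were -1.46 and -0.56. Without *Hprt*, a reference gene that is low in E14, the count was 4. Shares of all genes under these scalings were not computed. The core factors *Pou5f1*, *Sox2* and *Nanog* were at 1.15, 0.875 and 0.693 times their E14 level. The remaining factors *Prdm14*, *Zfp42* and *Nr0b1* were at 1.10, 0.558 and 0.543 times their E14 level. Not all factors outside the core thus passed the 2-fold limit. The side of E14 on which *Pou5f1*, *Sox2* and *Prdm14* lay depended on the scaling. Within the batch, against CJ7 ESCs, 3 factors were at least 2-fold lower, where 10.7% of all genes were, namely *Tbx3* (2.37-fold), *Zfp42* (2.26-fold) and *Esrrb* (2.20-fold), and *Klf4* and *Tfcp2l1* were 1.42- and 1.49-fold lower. *Esrrb* and *Tbx3* were thus at least 2-fold lower against either wild-type line, although the *Tbx3* call against E14 ended with equal FPKM sums (log2 ratio -0.66) and with equal 75th percentiles (-0.99). Between the wild-type lines, 0 of the 10 factors differed by at least 2-fold in either direction, against 14.7% of all genes lower and 15.7% higher in CJ7 than in E14 ESCs. Tested as 2 mutant against 2 wild-type lines, 0 of the 10 factors passed an adjusted p of 0.05 in limma with 2 residual degrees of freedom, where 0.00753% of all genes were called lower. At an unadjusted p under 0.05 in limma, 4 factors were lower (*Esrrb*, *Zfp42*, *Klf4* and *Nr0b1*) and 0 higher. Of all genes, 1817 of 26545 passed this limit in either direction. With equal FPKM sums 1 factor was lower at this limit, and with equal 75th percentiles 3 were. The smallest adjusted p was that of *Esrrb*, 0.416 by limma, with a log2 difference of -1.53 ± 0.40 (SE). As deposited, its value was lower in both mutant lines than in either wild-type line, as for all members but *Pou5f1* and *Prdm14*. The side of E14 depended on the scaling for *Nanog* and *Tbx3* in *Suz12delta* ESCs and for *Sox2* in *Eednull* ESCs.

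**Figure D2:**
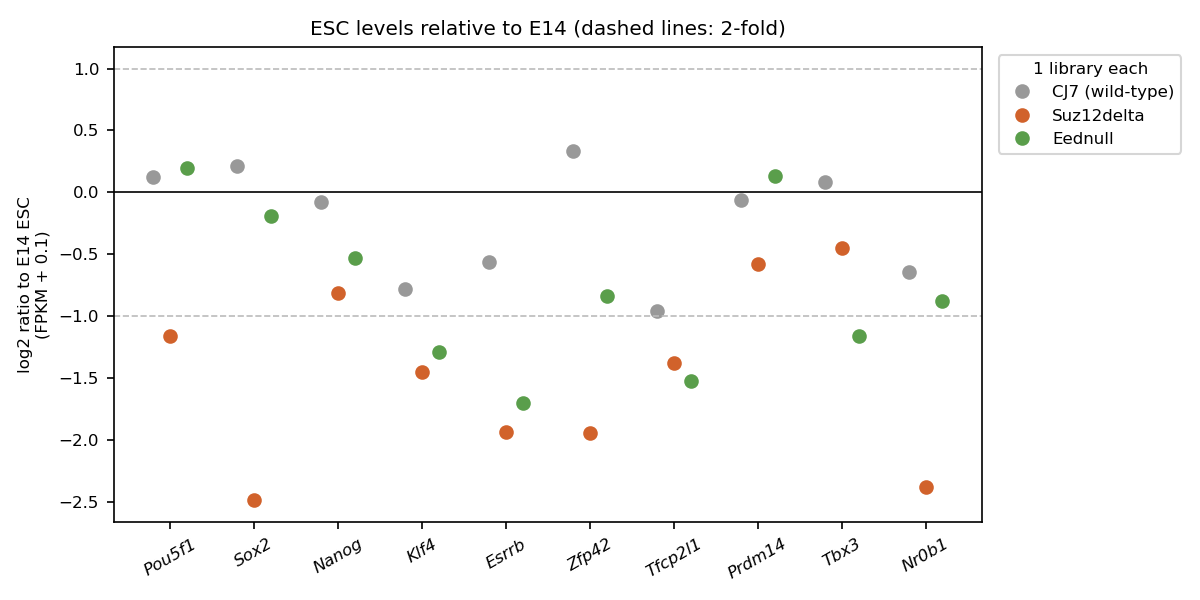
Log2 ratio of each factor to its E14 ESC level (FPKM plus 0.1) in CJ7 (grey), Suz12delta (orange) and Eednull (green) ESCs, 1 library per line, with dashed lines at 2-fold. All CJ7 points lie between the dashed lines, all Suz12delta points lie below 0 (*Nanog*, *Prdm14* and *Tbx3* turn positive with equal FPKM sums) and the lowest is *Sox2* at -2.49, and 4 Eednull points lie below the lower dashed line.

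Ratios of members to *Pou5f1* within a library do not depend on its scale. The *Sox2* to *Pou5f1* ratio was 0.516 in E14, 0.551 in CJ7, 0.205 in *Suz12delta* and 0.393 in *Eednull* ESCs. The *Nanog* to *Pou5f1* ratio was 1.19, 1.03, 1.52 and 0.718 in the same order, highest in *Suz12delta* and lowest in *Eednull* ESCs. The *Esrrb* to *Pou5f1* ratio was 0.763 in E14, 0.473 in CJ7, 0.446 in *Suz12delta* and 0.204 in *Eednull* ESCs, and the *Tbx3* to *Pou5f1* ratio was 0.207, 0.201, 0.339 and 0.0806. The *Suz12delta* and *Eednull* ESCs thus lay on opposite sides of both wild-type lines for the *Nanog* and *Tbx3* ratios, and on the same side for *Sox2* and *Esrrb*.

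In wild-type E14 cells, 9 of the 10 factors were at least 4-fold lower at day 5 than in ESCs, against 11.8% of all genes. The level left at day 5 was 0.232% of the ESC level for *Pou5f1*, 0.158% for *Esrrb*, 0.127% for *Zfp42*, 0.177% for *Tfcp2l1* and 0.302% for *Tbx3*, all ending at 0.302 FPKM or less, and *Nanog*, *Klf4* and *Prdm14* were listed at 0. *Nr0b1* ended at 2.01 FPKM, 7.42% of its ESC level. *Sox2* was the exception, with 20.7 FPKM at day 5, or 30.8% of its ESC level, and stood at the 89.5th percentile of all genes. Wild-type cells at this stage also expressed the neural progenitor genes, since 5 of 7 on the list (*Sox3*, *Pax6*, *Nes*, *Olig2*, *Fabp7*, *Nkx6-1* and *Irx3*) were at least 4-fold higher than in ESCs, against 7.72% of all genes.

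In *Suz12delta* cells 7 of the 10 factors were at least 4-fold lower at day 5 than in their own ESCs, against 5.00% of all genes, and in *Eednull* cells 9 of 10 were, against 8.91% of all genes. The median level left, as a share of each line's own ESC level, was 0.168% in E14, 11.6% in *Suz12delta* and 6.55% in *Eednull* cells. The members differed widely within each mutant line. In *Eednull* cells *Pou5f1* was at 0.340 FPKM at day 5, 0.227% of its ESC level and close to the 0.232% of E14 cells, and *Nanog* and *Prdm14* were listed at 0 as in E14 cells. By contrast, 10.9% of *Klf4*, 11.5% of *Tfcp2l1*, 13.0% of *Nr0b1* and 86.6% of *Tbx3* were left. *Esrrb* and *Zfp42* lay between these, with 1.45% and 3.51% left. In *Suz12delta* cells the lowest values were 0.936% for *Prdm14* and 1.07% for *Nanog*, followed by 3.48% for *Esrrb* and 3.66% for *Pou5f1*. The highest were 31.1% for *Sox2*, 44.3% for *Nr0b1* and 73.5% for *Tbx3*. These were the 3 factors in *Suz12delta* cells that did not reach a 4-fold lower level, and *Tbx3* was the only such factor in *Eednull* cells, where its log2 change of -0.21 ran from -1.44 to 0.27 over the alternatives.

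Since the *Suz12delta* ESC library had the highest fibroblast marker sum and the lowest level of the 4 ESC libraries for all factors but *Tfcp2l1* and *Tbx3*, the same day 5 values were also set against E14 ESCs. On that base 9 of 10 factors were at least 4-fold lower in *Suz12delta* day 5 cells and 9 of 10 in *Eednull* day 5 cells, against 5.55% and 7.31% of all genes, and *Tbx3* was the remaining factor in each, at 53.6% and 38.6% of the E14 ESC level. The median over the 10 factors was then 3.59% in *Suz12delta* and 2.97% in *Eednull* day 5 cells, against 0.168% in E14 day 5 cells. The 2 mutant lines were thus closer to each other than on their own ESC levels.

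Over the 3 lines with both stages, paired by line, 7 of the 10 factors were lower at day 5 at an adjusted p under 0.05 (limma, 2 residual degrees of freedom), where 1.38% of all genes were called lower. They were *Nanog*, *Pou5f1*, *Esrrb*, *Prdm14*, *Zfp42*, *Sox2* and *Nr0b1*. *Nanog* had a mean log2 change of -9.02 ± 0.76 (SE) with an adjusted p of 0.00324 by limma, and *Pou5f1* one of -7.15 ± 0.69 (SE) with an adjusted p of 0.00434. *Nanog* and *Prdm14* were listed at 0 at day 5 in E14 and *Eednull* cells, so their estimates rest on the added 0.1 there. In *Suz12delta* cells, where *Nanog* was not at 0, its log2 change was -6.40. *Klf4* was listed at 0 at day 5 in E14 cells. *Klf4* (adjusted p = 0.0509) and *Tfcp2l1* (0.0524) missed the threshold in limma, as did *Tbx3*, with -2.62 ± 1.19 (SE) and an adjusted p of 0.298. All 10 were lower at day 5 in all 3 lines as deposited, with *Tbx3* in *Eednull* cells changing side under some alternatives. With 1 of the lines left out, 8 or 9 factors passed, but these fits had 1 residual degree of freedom. Of all genes, 1095 of 26016 were called lower without E14, 364 of 25762 without *Suz12delta* and 628 of 23989 without *Eednull*. A higher count from fewer libraries is therefore no check of the result. Differences between the lines in these changes were not tested.

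**Figure D3:**
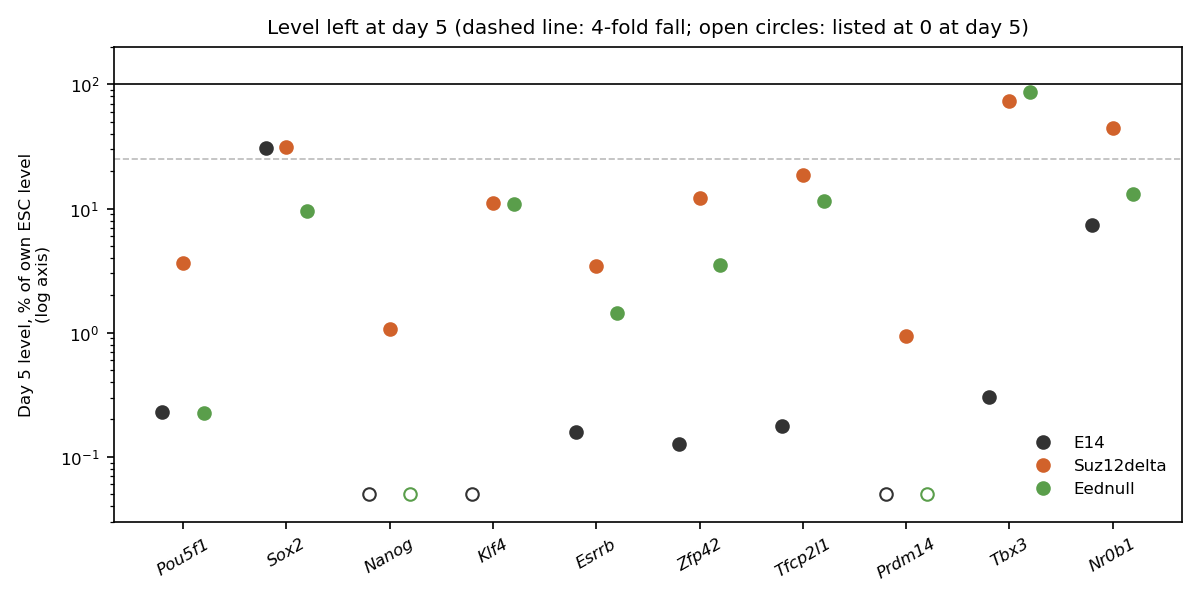
Level of each factor at day 5 in percent of the ESC level of the same line, on a log axis, for E14 (black), Suz12delta (orange) and Eednull (green), 1 library per point. The dashed line marks a 4-fold lower level and open circles at the bottom are values listed at 0 at day 5. *Tbx3* is at 73.5% and 86.6% in the mutant lines against 0.302% in E14, and *Pou5f1* is at 0.227% in Eednull and 0.232% in E14.

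At day 5, 7 of the 9 factors compared were at least 2-fold higher in *Suz12GT* than in E14 cells, against 16.8% of all genes, and 1 was at least 2-fold lower, against 4.40%. *Prdm14*, at 0.0411 FPKM in *Suz12GT* cells, was under the minimum in both libraries. *Pou5f1* was at 0.302 FPKM in E14 and 1.80 FPKM in *Suz12GT* day 5 cells, *Zfp42* at 0.143 and 1.42 FPKM and *Tfcp2l1* at 0.0531 and 0.616 FPKM. *Esrrb* was at 0.157 and 0.569 FPKM, while *Nanog* and *Klf4* were listed at 0 in E14 and were at 1.21 and 1.37 FPKM in *Suz12GT* cells. For these factors the *Suz12GT* level thus stood between 0.569 and 1.80 FPKM, far under the level in ESCs. Relative to E14 ESCs it was 0.573% for *Esrrb*, 0.780% for *Nanog*, 1.26% for *Zfp42*, 1.38% for *Pou5f1*, 1.89% for *Klf4* and 2.06% for *Tfcp2l1*, so these factors lay within a narrow range in this line. *Tbx3* lay outside it, at 7.13 FPKM or 26.4% of the E14 ESC level. *Nr0b1* was the factor that was lower, at 0.707 FPKM against 2.01 FPKM in E14 day 5 cells, a call that ended with a pseudocount of 1 (log2 ratio -0.82), and *Sox2* was at 22.2 FPKM, 1.07 times its E14 day 5 level.

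In *Suz12delta* day 5 cells, 7 of the 9 factors compared were at least 2-fold higher than in E14 day 5 cells, against 26.6% of all genes, and 1 was at least 2-fold lower, against 9.52%. *Zfp42* was at 3.55 FPKM, *Klf4* at 2.92 FPKM, *Tfcp2l1* at 2.12 FPKM, *Pou5f1* at 2.12 FPKM, *Nanog* at 0.940 FPKM and *Esrrb* at 0.901 FPKM. In *Eednull* day 5 cells, 5 of the 8 factors compared were at least 2-fold higher than in E14 day 5 cells, against 21.6% of all genes, and 1 was at least 2-fold lower, against 11.3%. There *Klf4* was at 3.21 FPKM, *Zfp42* at 2.21 FPKM, *Tfcp2l1* at 1.19 FPKM and *Esrrb* at 0.443 FPKM, and *Nr0b1* at 1.91 FPKM was near its E14 value. *Zfp42*, *Tfcp2l1*, *Klf4*, *Esrrb* and *Tbx3* were at least 2-fold higher than in E14 in all 3 mutant lines. With a pseudocount of 1 the *Esrrb* call ended in all 3 lines (log2 ratios of 0.44, 0.72 and 0.32) and that of *Tfcp2l1* in *Suz12GT* cells (0.62). All 3 comparisons share the single E14 day 5 library, in which *Nanog*, *Klf4* and *Prdm14* were listed at 0 and *Esrrb*, *Zfp42*, *Tbx3* and *Tfcp2l1* were at 0.0531 to 0.157 FPKM, so the folds rest on low values.

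*Tbx3* showed the widest gap at day 5. It was at 0.0815 FPKM in E14, 7.13 FPKM in *Suz12GT*, 14.5 FPKM in *Suz12delta* and 10.4 FPKM in *Eednull* day 5 cells, against 12.0 to 28.5 FPKM in the ESC libraries. The mutant values overlapped the ESC range in *Suz12delta* cells, and the log2 ratio to E14 day 5 (FPKM plus 0.1) was 5.31, 6.33 and 5.86 in the 3 lines. TBX3 is also known from endoderm. The 6 endoderm genes on the list (*Gata4*, *Gata6*, *Sox17*, *Sox7*, *Foxa2* and *Afp*) were each at least 2-fold higher than in E14 day 5 cells in all 3 mutant lines. By this measure 16.8% of all genes were higher in *Suz12GT*, 26.6% in *Suz12delta* and 21.6% in *Eednull* day 5 cells. The summed level of the endoderm genes was 3.72 FPKM in E14, 29.7 FPKM in *Suz12GT*, 38.4 FPKM in *Suz12delta* and 34.1 FPKM in *Eednull* day 5 cells. In E14 day 5 cells *Gata4* and *Afp* were listed at 0, and *Sox17* and *Sox7* were at 0.0389 and 0.0702 FPKM, so these folds rest on low values. *Afp* was only at 0.155 FPKM in *Suz12GT* cells. *Foxa2* made 2.96 FPKM of the E14 sum and 11.8 FPKM of the *Suz12GT* sum, where *Gata4* made 11.6 FPKM. Among the ESC libraries *Eednull* had the highest endoderm sum, 23.97 FPKM against 1.11 FPKM in E14. It also had the lowest *Tbx3* level, 12.0 FPKM against 27.0 FPKM in E14 ESCs. Of 5 trophoblast genes, 3 of 3 compared in *Suz12GT* and 5 of 5 in *Suz12delta* and in *Eednull* cells were at least 2-fold higher than in E14 day 5 cells. In *Suz12GT* cells *Krt8* was at 6.42 FPKM against 0.845 FPKM in E14. *Elf5* and *Hand1* were only at 0.197 and 0.219 FPKM there and listed at 0 in E14, so these calls rest on the added 0.1. *Cdx2* and *Eomes* were under 0.1 FPKM in both libraries and not compared. The fibroblast markers were higher too, 10 of 12 in *Suz12GT* and 12 of 12 in each of the other lines. Whether endoderm, trophoblast or fibroblast cells have a part in the *Tbx3* and *Klf4* values was not tested.

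*Sox2* went the other way. At day 5 it was at 20.7 FPKM in E14 and 22.2 FPKM in *Suz12GT* cells but at 3.70 FPKM in *Suz12delta* and 5.63 FPKM in *Eednull* cells, 5.60 and 3.68 times lower than in E14. In *Suz12delta* cells the gap to E14 was already 5.65-fold in ESCs, and the share left at day 5 was 31.1% against 30.8% in E14, whereas in *Eednull* cells it was 9.59%. The *Suz12GT* value was thus near wild type and the other mutant values were under it. The neural progenitor genes were also lower in *Suz12delta* and *Eednull* cells at day 5. Their sum over 7 genes was 135 FPKM in E14, 140 FPKM in *Suz12GT*, 26.6 FPKM in *Suz12delta* and 22.2 FPKM in *Eednull* day 5 cells. In *Suz12GT* cells *Fabp7* was at 66.7 FPKM against 27.3 FPKM in E14, but 5 of the 7 genes were lower by any amount. *Sox3*, *Pax6* and *Olig2* were at 8.91, 8.18 and 10.5 FPKM in *Suz12GT* against 17.4, 21.9 and 22.1 FPKM in E14 day 5 cells. Of these 7 genes, 6 in *Suz12delta* and 7 in *Eednull* cells were at least 2-fold lower than in E14 cells, against 2 in *Suz12GT* cells. The shares of all genes were 9.52%, 11.3% and 4.40%. *Sox2* and *Tbx3* were the members with the highest values at day 5 in all 3 mutant lines, *Sox2* leading in *Suz12GT* cells and *Tbx3* in *Suz12delta* and *Eednull* cells.

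**Figure D4:**
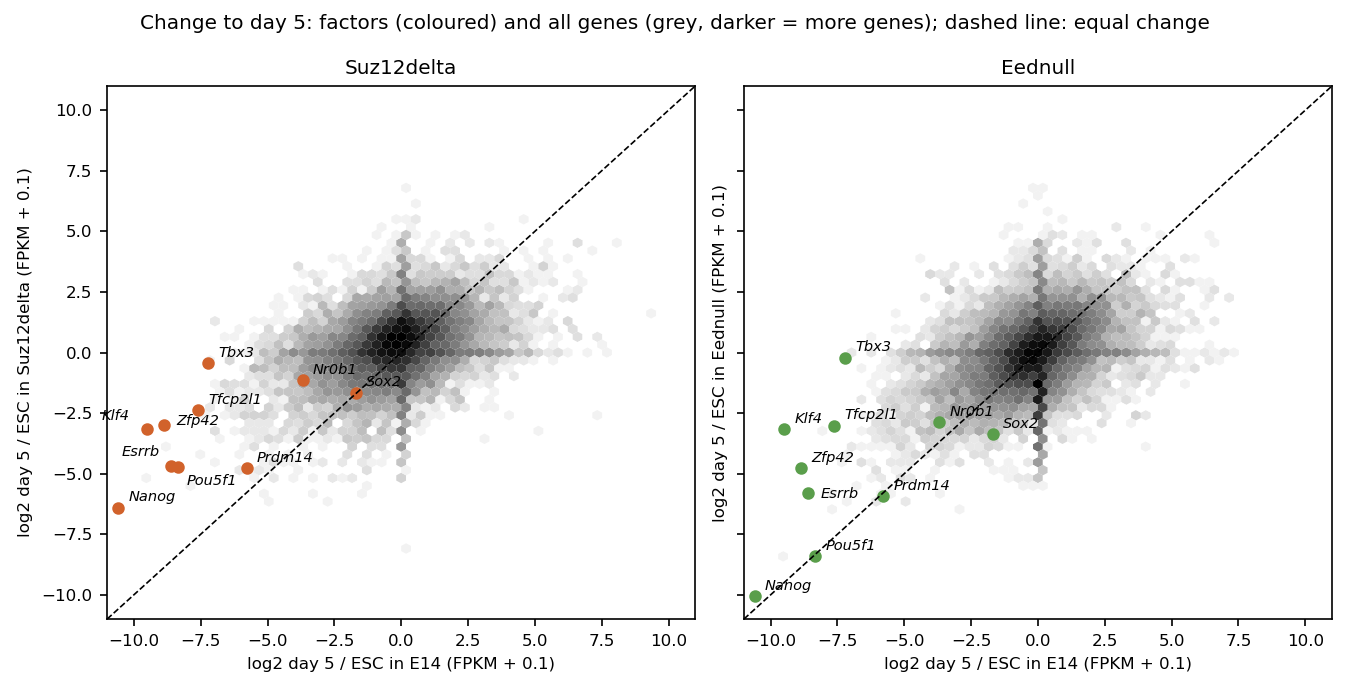
Log2 change from ESC to day 5 (FPKM plus 0.1) in Suz12delta (left) and Eednull (right) cells against that in E14 cells, with the 10 factors coloured, all genes in grey and a dashed line at equal change. Values listed at 0 enter with the added 0.1. In Eednull cells *Pou5f1*, *Nanog* and *Prdm14* lie near the dashed line while *Tbx3* is at -0.21, and in Suz12delta cells *Sox2* lies nearest to it.

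The other genes of the ESC network were compared as a list of 20 regulators and reporters. In E14 cells 16 of 20 were at least 4-fold lower at day 5 than in ESCs, beside 11.8% of all genes. *Rif1*, *Lin28a*, *Gbx2* and *Zfp281* were left at 29.0 to 51.4% of their ESC level. In *Suz12delta* cells 13 of 20 and in *Eednull* cells 16 of 20 were at least 4-fold lower, beside 5.00% and 8.91% of all genes. The median level left was 0.232% in E14, 11.1% in *Suz12delta* and 1.35% in *Eednull* cells, against 6.55% for the 10 factors in *Eednull* cells. Set against E14 ESCs, the median of the 20 was 4.14% in *Suz12delta* and 0.934% in *Eednull* day 5 cells. *Klf5*, which encodes a KLF factor related to KLF4, was at 0.154 FPKM in E14, 2.81 FPKM in *Suz12GT*, 7.49 FPKM in *Suz12delta* and 6.76 FPKM in *Eednull* day 5 cells. *Nr5a2*, a nuclear receptor gene, was at 3.12 FPKM in *Eednull* day 5 cells, 60.01% of its ESC level there, against 0.0811 FPKM in E14. By contrast *Tdgf1*, *Gdf3* and *Dppa5a* were at 0.231%, 0.107% and 0.271% of their ESC level in *Eednull* cells, as low as *Pou5f1*. In ESCs, 18 of the 20 were at least 2-fold lower in *Suz12delta* and 5 of 20 in *Eednull* cells than in E14 cells, beside 22.8% and 11.9% of all genes. These counts were not recomputed under other scalings, and equal FPKM sums moved the median of all genes in *Suz12delta* ESCs from -0.28 to 0.73. *Dppa3*, under the 2-fold limit, was at 12.8 FPKM in *Suz12delta* against 6.53 FPKM in E14 ESCs.

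The receptor and signaling genes of the LIF pathway were given as a list of 7. Of these (*Lifr*, *Il6st*, *Jak1*, *Stat3*, *Socs3*, *Pim1* and *Ptpn11*), 1 was at least 4-fold lower at day 5 in E14, 0 in *Suz12delta* and 2 in *Eednull* cells, beside 11.8%, 5.00% and 8.91% of all genes. In E14 cells 6 of the 7 were lower by any amount, with a median log2 change of -1.02 against -0.20 over all genes. *Stat3*, the transcription factor of the pathway, was at 21.0 FPKM in E14, 29.4 FPKM in CJ7, 34.3 FPKM in *Suz12delta* and 24.98 FPKM in *Eednull* ESCs. *Socs3*, its target and feedback inhibitor, was at 8.86 to 13.3 FPKM in ESCs and 2.65 to 5.81 FPKM at day 5. Of 7 genes of the primed epiblast, the state that follows the naive one, 6 were at least 2-fold lower in *Suz12delta* ESCs than in E14 ESCs and 0 in *Eednull* ESCs. The shares of all genes were 22.8% and 11.9%, and these counts were not recomputed under other scalings. In *Eednull* ESCs 1 of the 7 was at least 2-fold higher, beside 22.4% of all genes. This was *Fgf5*, at 6.38 FPKM against 1.74 FPKM in E14, while *Otx2* was at 12.5 against 15.8 FPKM, *Lef1* at 6.53 against 12.5 FPKM and *Zic2* at 13.5 against 20.1 FPKM. At day 5, 1 of 5 primed genes compared in *Suz12GT*, 5 of 7 in *Suz12delta* and 4 of 7 in *Eednull* cells were at least 2-fold higher than in E14 cells. The shares of all genes were 16.8%, 26.6% and 21.6%. *Fgf5* was at 0.405 FPKM in E14, 1.201 FPKM in *Suz12GT*, 3.37 FPKM in *Suz12delta* and 3.11 FPKM in *Eednull* cells. Of 5 germ cell genes, a lineage in which PRDM14 and NR0B1 also occur, 3 were at least 2-fold higher in *Suz12GT*, 3 in *Suz12delta* and 4 in *Eednull* than in E14 day 5 cells, beside the same shares of all genes.

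The likeness of profiles over the 8 libraries was described by the mean absolute difference of log2 values (FPKM plus 0.1), each centred on its own mean. Among the factors the closest pairs were *Klf4* with *Tfcp2l1* (0.52) and *Pou5f1* with *Esrrb* (0.56), and *Sox2* with *Nanog* were farthest apart (3.17). Outside the factors, among genes that reached 10 FPKM in some library, the 3 profiles nearest to *Pou5f1* were *Dppa5a* (0.28), its paralog *Dppa5b* (0.33) and *Lefty2* (0.35). The same 3 genes were nearest to *Nanog*, at 0.65 to 0.68. *Klf4* was nearest to *Laptm5* (0.47), *Triml2* (0.54) and *Triml1* (0.55), and *Tbx3* to *Tcfl5* (0.55), the small RNA gene *SNORD59* (0.60) and *Bcl3* (0.64). *Sox2* was nearest to *Gm9847* (0.37) and to a pair of identical *U3* small RNA entries (0.45). Reads of the paralogs *Dppa5a* and *Dppa5b* may be split between them, so their separate values are uncertain.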

How the data were processed

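RNA-seq was measured in 8 mouse libraries, each the only library of its condition, so differences between libraries have no replicate check. The authors deposited FPKM values for 36808 genes, 1 column per library, which the submitters' processing notes and methods credit to Cuffdiff of Cufflinks 1.2.1, after alignment to NCBI build 37 by TopHat 1.3.2 using Bowtie 0.12.7, with bias and multi-read correction. Columns were assigned from their names and the sample titles. No read counts are in the table, and among values up to 0.05 FPKM the commonest ratio between libraries covered 1.60 to 8.12% of genes, so read depth is unknown. FPKM sums ran from 389165 to 797748.

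Ratios used log2 of FPKM plus 0.1, where the higher value reached 0.1 FPKM, without rescaling, which understates changes of low genes. Counts are of genes past 4-fold (ESC to day 5) or 2-fold (between lines). For all genes reaching 0.1 FPKM, limma 3.58.1 (R 4.3.3, trended eBayes, Benjamini-Hochberg adjustment) was fitted on the same log2 values to day 5 against ESC with line as a block (E14, *Suz12delta*, *Eednull*) and to mutant against wild-type ESC lines, both added after seeing the data. The fold calls and the first fit were checked on simulated data with known answers. The members and gene lists were chosen with earlier results of these data known, and genes named are the members, the listed genes and, for 5 members, the 3 nearest profiles. *Sox1*, *Map2* and *Tfap2c* were not found under these symbols, and *Pou3f1*, which has more than 1 row, was taken from its higher row. Gene positions are from GENCODE vM1. Alternatives were other pseudocounts, minima, folds and scalings, CJ7 as wild type, and other ESC libraries as the start. Python 3.11.15, NumPy 2.4.6 and pandas 2.3.3 were used.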

Additional observations from a re-analysis of the deposited data

Results flagged for a closer look

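The results below stand out because mutant lines lay on opposite sides of the E14 library in the same comparison. With 1 library per line the differences were not tested, and the signs near 0 changed with the scaling. *Pou5f1* in ESCs had a log2 ratio to E14 of 0.20 in *Eednull* and -1.16 in *Suz12delta* cells, a difference of 1.36. *Prdm14* in ESCs had 0.13 in *Eednull* and -0.58 in *Suz12delta* cells, a difference of 0.71. *Sox2* at day 5 had 0.10 in *Suz12GT* and -2.45 in *Suz12delta* cells, a difference of 2.56. *Nr0b1* at day 5 had 0.17 in *Suz12delta* and -1.38 in *Suz12GT* cells, a difference of 1.56.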

How the results depend on the processing

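Of 142 fold counts of members recomputed under alternatives, 133 stayed within 1.5 times the value reported, and every median log2 ratio kept its sign except that of CJ7 against E14 ESCs, which was -0.07 as reported and ran from -0.62 to 0.14. The counts of factors at least 4-fold lower at day 5 were the most stable, since none moved beyond that range. With each library set to the same FPKM sum, 2 factors in place of 7 were at least 2-fold lower in *Suz12delta* than in E14 ESCs, and 2 in place of 4 in *Eednull* ESCs. That scaling moved the median of all genes in *Suz12delta* ESCs from -0.28 to 0.73 on the log2 scale, and that of the factors from -1.41 to -0.38. Scaling to the 8 reference genes gave 7 lower factors in *Eednull* and 4 in CJ7 ESCs. *Hprt* is among these genes and is low in both E14 libraries, and without it (an alternative chosen after seeing the data) the counts were 4 and 0. A 4-fold limit gave 2 lower factors in *Suz12delta* ESCs, 0 in *Eednull* ESCs, and 0 at day 5 in *Suz12GT* and *Eednull* cells. With a pseudocount of 1, 0 factors were lower in *Suz12GT* day 5 cells. Apart from the reference gene scalings, the cause of these shifts was not tested. The change to day 5 was paired by line (line as the replicate block): 7 factors passed in limma as reported, 6 with a pseudocount of 1 and 6 with equal FPKM sums, and 7 with equal 75th percentiles. With 1 line left out 8 to 9 passed, at 1 residual degree of freedom, which is no check of the count. For mutant against wild-type ESC lines 0 factors passed under each of the 3 alternatives run. The labels give no replicate numbers by which lines could be paired with each other.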

Other observations

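Lists of other lineages differed in how they stood in the mutant ESCs in which the factors were measured. Of 5 endoderm genes compared, 5 were at least 2-fold higher in *Suz12delta* and 5 in *Eednull* than in E14 ESCs, with summed levels of 1.11 FPKM in E14, 1.94 FPKM in CJ7, 5.75 FPKM in *Suz12delta* and 23.97 FPKM in *Eednull* ESCs. Of the trophoblast genes, 4 of 5 in *Suz12delta* and 4 of 4 in *Eednull* ESCs were at least 2-fold higher than in E14 ESCs, and 1 of 4 in CJ7 ESCs. Of 5 germ cell genes, 4 were at least 2-fold lower in *Suz12delta* and 1 in *Eednull* ESCs, and 0 were higher in either. Of 7 neural progenitor genes, 2 were lower and 2 higher in *Suz12delta* ESCs and 0 lower and 2 higher in *Eednull* ESCs. Of all genes, 22.8% were at least 2-fold lower and 18.0% higher in *Suz12delta* than in E14 ESCs. The shares were 11.9% lower and 22.4% higher in *Eednull* ESCs, and 15.7% higher in CJ7 ESCs. The neural progenitor counts were not far from these shares. The median log2 ratio of the neuronal genes in *Suz12delta* ESCs was -0.13.

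*Hprt* was at 16.5 FPKM in *Suz12GT* day 5 cells and 0.652 FPKM in E14 day 5 cells, although both lines carry the same background label. The *Suz12GT* values above are given against E14 as the labels have it, and whether the lines share a parent was not tested.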
